A study of Mus musculus with 6 samples.

Results

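Liver contains resident and passing lymphocytes, and 35 genes that mark them were examined here: 14 T lineage genes, 4 T regulatory and checkpoint genes, 11 genes of natural killer (NK) and cytotoxic cells, 5 B lineage genes, and Ptprc, which encodes the leukocyte surface phosphatase CD45. The genes were taken from a list of symbols that was chosen with earlier results of these data known. Each of the 35 was found in 1 row among 55802 distinct symbols. The liver RNA came from male C57BL/6 mice reared for 71 weeks. Of the 6 libraries, 3 came from mice on chow containing polystyrene microplastic (PS-MP) and 3 from mice on normal chow, called control. No genotype other than the strain is given, and the sources used here give neither the particle size nor the dose. The labels do not say that replicates are separate animals, so p-values measure the spread between these libraries, which may be technical.

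T cells recognise antigen through a receptor whose alpha and beta chains (Trac, Trbc1, Trbc2) are held at the surface by the CD3 chains and signal through the kinases Lck and Zap70. NK cells and cytotoxic T cells kill target cells with perforin and granzymes, and the liver is known as a tissue rich in both. B cells signal through Cd79a and Cd79b, which accompany the surface immunoglobulin, and mature into antibody-secreting plasma cells.

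The genes for CD3 gamma and CD3 delta lie head to head on mouse chromosome 9, with start sites 1355 bases apart, and Cd79a is a pan-B cell gene. The 250 bases before each start are shown because Cd3d, Cd3g and Cd79a followed the library pattern described below, and ETS family factors, whose core motif is GGAA, regulate many lymphocyte genes. Sequences are from RefSeq, build GRCm38.p6, and are printed 5′ to 3′ on the strand of the gene. Capitals mark GGAA or its reverse complement TTCC. Promoters were taken for 23 of the 35 genes. A chromosome was left out of that search, so the source may hold promoters of more of them.
Cd3g, chr9:44980432-44980681, minus strand: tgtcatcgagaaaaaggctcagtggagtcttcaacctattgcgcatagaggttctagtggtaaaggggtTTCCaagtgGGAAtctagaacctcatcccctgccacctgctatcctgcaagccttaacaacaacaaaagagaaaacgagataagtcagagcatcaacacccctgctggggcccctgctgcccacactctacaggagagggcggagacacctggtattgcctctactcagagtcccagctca
Cd3d, chr9:44981536-44981785, plus strand: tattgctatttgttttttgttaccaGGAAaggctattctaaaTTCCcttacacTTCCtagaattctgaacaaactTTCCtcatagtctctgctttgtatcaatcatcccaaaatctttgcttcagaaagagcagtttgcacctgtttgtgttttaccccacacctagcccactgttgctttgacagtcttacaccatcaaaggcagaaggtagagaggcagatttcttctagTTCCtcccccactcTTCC
Cd79a, chr7:24897247-24897496, plus strand: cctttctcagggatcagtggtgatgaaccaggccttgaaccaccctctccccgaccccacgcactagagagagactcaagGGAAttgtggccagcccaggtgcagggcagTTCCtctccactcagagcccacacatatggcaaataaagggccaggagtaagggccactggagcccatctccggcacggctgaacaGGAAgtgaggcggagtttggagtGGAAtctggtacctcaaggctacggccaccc
The motif stands 2 times in the Cd3g window, 6 times in the Cd3d window and 4 times in the Cd79a window. A match was present in 20 of the 23 genes, where a gene with several promoters counted if any of them held it. Over the same number of bases, 93.4% of all promoters, on all chromosomes and each counted alone, held a match. The unit of these shares differs, so they were not compared. An exact match to CCCNNGGG, a core of the B cell factor EBF1, was not found on either strand of the Cd79a window and is in 11.8% of all promoters. Sites that differ from these exact letters were not searched, so an EBF1 site in the Cd79a window is not excluded. The capitals likewise mark letters alone, not bound factors.

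Sequencing depth was 79081889, 79317092 and 79691824 counts in PS-MP libraries and 75897165, 68357478 and 112566641 counts in control libraries. The 35 genes held 1812, 5818 and 2907 of these counts in PS-MP libraries and 3014, 3299 and 3042 in control libraries, and no single gene had more than 1114 counts in a library. The ribosomal RNA gene Rn18s-rs5 took 1.14%, 0.599% and 0.387% of counts in PS-MP libraries and 2.92%, 11.2% and 1.15% in control libraries. Levels below are counts scaled to a common library total (CPM), with library sizes adjusted by trimmed mean of M values (TMM), always in the order replicate 1, 2 and 3.

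No lymphocyte gene differed between the diets past the threshold. Of the 35 genes, 33 passed the filter on low counts, and 0 of these were called by the quasi-likelihood F test of edgeR at an adjusted p of 0.05 over all 17662 genes tested, where 2 genes, or 0.0113%, were called. The smallest adjusted p among the 33 was 0.923. DESeq2 and limma-voom also called 0 of the 33, against 1.06% and 0.00566% of the genes that each tested. At an unadjusted p of 0.05, 1 of the 33 passed (Trbc1, lower), against 5.38% of all genes tested. The PS-MP libraries lay above all control libraries for 1 tested gene (Klrd1), against 6.24% of all genes tested, and below them for 2 (Trbc1 and Zap70), against 4.99%. In whole liver, fewer cells of a type and less RNA per cell cannot be told apart.

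Within a diet, the libraries spread more widely for these genes than for all genes tested, which is given as a description. The median ratio of the highest to the lowest library within a diet was 3.35 in PS-MP libraries and 2.37 in control libraries for the 33 genes. For the 9051 tested genes whose mean level lay in the same range, 0.168 to 7.21 CPM, the median ratio was 1.65 in PS-MP libraries and 1.77 in control libraries. The standard error of the log2 fold change had a median of 0.56 for the lymphocyte genes, 0.38 for the 9051 genes of like level and 0.29 for all genes tested. A change of 2-fold or more lay outside the 95% interval for 3 of the 33 (Cd3e, Cd4 and Trac), against 53.6% of all genes tested and 35.4% of those of like level. For the other 30 genes the interval includes a 2-fold change, and the cause of its width was not tested.

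**Figure D1:**
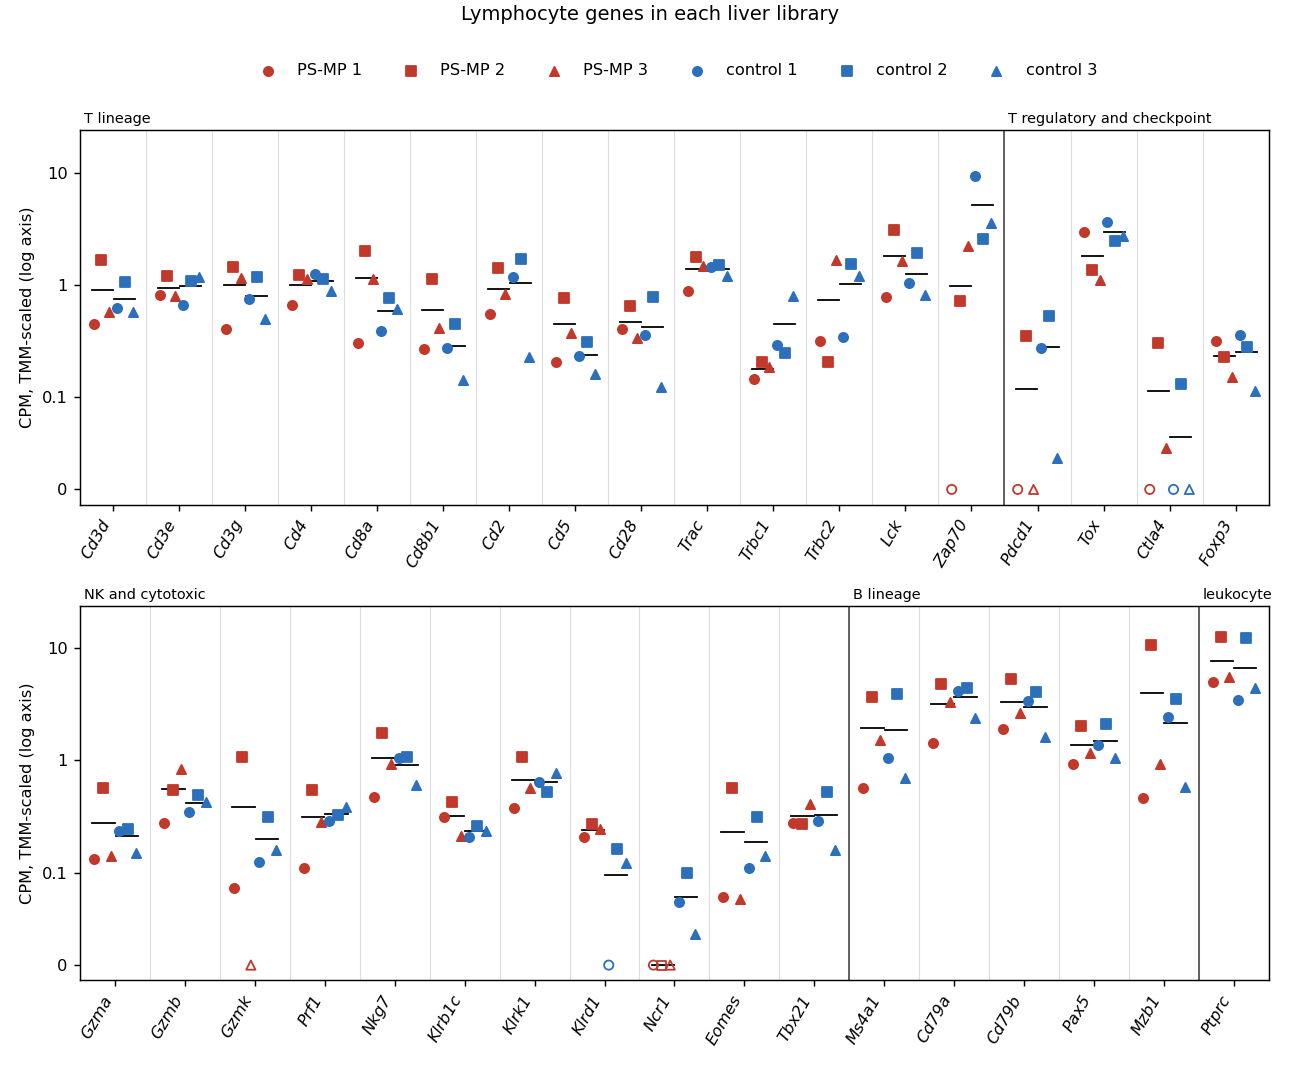
Level of each of the 35 genes in each library, in CPM on a log axis, with PS-MP libraries left of control libraries, a symbol for each replicate and a line at each diet mean; open symbols stand for 0 counts. For most genes the symbols of both diets cover the same range, and the square of PS-MP replicate 2 stands at the top of its diet for 27 of the 33 tested genes.

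The CD3 chains, which carry the receptor's signal into the cell, did not pass the test. Cd3e, CD3 epsilon, had 0.813, 1.20 and 0.794 CPM in PS-MP libraries and 0.661, 1.08 and 1.17 CPM in control libraries, and the 2 diets overlapped, with a log2 fold change of -0.06 (standard error 0.33, 95% interval -0.83 to 0.72). Cd3d, CD3 delta, had 0.449, 1.66 and 0.572 CPM in PS-MP libraries and 0.619, 1.05 and 0.567 CPM in control libraries. Its highest level was in PS-MP replicate 2, and every other library lay at or below 1.05 CPM. Cd3g, CD3 gamma, had 0.400, 1.43 and 1.16 CPM in PS-MP libraries and 0.743, 1.17 and 0.491 CPM in control libraries, with both replicates 2 the highest of their diet. The log2 fold change was 0.27 (standard error 0.56, 95% interval -1.07 to 1.61) for Cd3d. For Cd3g it was 0.32 (standard error 0.54, 95% interval -0.96 to 1.61).

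The constant regions of the receptor were read chain by chain. Trac, the alpha constant region, had 0.886, 1.75 and 1.48 CPM in PS-MP libraries and 1.43, 1.51 and 1.21 CPM in control libraries, with a log2 fold change of -0.01 (standard error 0.31, 95% interval -0.74 to 0.73), and its diets overlapped closely. Trbc1, 1 of the 2 beta constant regions, had 0.146, 0.204 and 0.187 CPM in PS-MP libraries and 0.289, 0.246 and 0.794 CPM in control libraries. All PS-MP libraries lay below all control libraries, but control replicate 3 with 84 counts stood far above the other control libraries with 21 and 15 counts. The PS-MP libraries held 12, 18 and 16 counts. The log2 fold change of Trbc1 was -1.32 (standard error 0.54, 95% interval -2.62 to -0.02), with an unadjusted p of 0.0478 and an adjusted p of 0.923 in edgeR's quasi-likelihood test. Without control replicate 3, 0 of the 35 lymphocyte genes had an unadjusted p under 0.05 in edgeR. Trbc2, the other beta constant region, had 0.316, 0.204 and 1.66 CPM in PS-MP libraries and 0.344, 1.54 and 1.19 CPM in control libraries, so that 2 PS-MP libraries and 1 control library were low and the diets overlapped. Trbc1 and Trbc2 are near-identical copies whose reads the counting could split either way, so the values of each alone are uncertain.

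The coreceptors separate helper from cytotoxic T cells. Cd4, the coreceptor of helper T cells, also present on some myeloid cells, had 0.655, 1.21 and 1.13 CPM in PS-MP libraries and 1.24, 1.13 and 0.888 CPM in control libraries, with overlapping diets and a log2 fold change of -0.12 (standard error 0.32, 95% interval -0.87 to 0.64). Cd8a, the alpha chain of the coreceptor of cytotoxic T cells, had 0.303, 2.02 and 1.12 CPM in PS-MP libraries and 0.385, 0.755 and 0.605 CPM in control libraries. PS-MP replicates 2 and 3 lay above every control library, while PS-MP replicate 1 lay below all of them. Cd8b1, the beta chain, had 0.267, 1.12 and 0.409 CPM in PS-MP libraries and 0.275, 0.443 and 0.142 CPM in control libraries, with PS-MP replicate 2 again highest. The log2 fold changes were 0.98 (standard error 0.65, 95% interval -0.59 to 2.55) for Cd8a and 1.08 (standard error 0.67, 95% interval -0.52 to 2.68) for Cd8b1, with adjusted p of 0.984 and 0.969 in edgeR's quasi-likelihood test. Without PS-MP replicate 2 they were 0.30 for Cd8a and 0.26 for Cd8b1.

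The remaining surface genes of T cells overlapped between diets. Cd2, an adhesion receptor shared by T and NK cells, had 0.546, 1.40 and 0.829 CPM in PS-MP libraries and 1.18, 1.71 and 0.227 CPM in control libraries, a log2 fold change of -0.15 (standard error 0.71, 95% interval -1.86 to 1.55). Cd5, an inhibitory receptor of T cells and of a subset of B cells, had 0.206, 0.759 and 0.374 CPM in PS-MP libraries and 0.234, 0.312 and 0.161 CPM in control libraries. PS-MP replicate 1 lay inside the control range and the other 2 PS-MP libraries above it, and the log2 fold change was 0.93 (standard error 0.56, 95% interval -0.40 to 2.27), or 0.32 without PS-MP replicate 2. Cd28, the main costimulatory receptor, had 0.400, 0.645 and 0.339 CPM in PS-MP libraries and 0.358, 0.772 and 0.123 CPM in control libraries, with both replicates 2 the highest of their diet and a log2 fold change of 0.17 (standard error 0.66, 95% interval -1.40 to 1.74).

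The kinases of the receptor ranked the libraries differently. Lck, which phosphorylates the CD3 chains, had 0.777, 3.06 and 1.62 CPM in PS-MP libraries and 1.03, 1.90 and 0.813 CPM in control libraries, with the highest level in PS-MP replicate 2, overlapping diets and a log2 fold change of 0.55 (standard error 0.56, 95% interval -0.78 to 1.88). Zap70, which is recruited to the phosphorylated chains, had 0, 0.713 and 2.22 CPM in PS-MP libraries and 9.28, 2.58 and 3.53 CPM in control libraries. All PS-MP libraries lay below all control libraries, and counts ran from 0 to 190 in PS-MP libraries and from 157 to 674 in control libraries. The log2 fold change of Zap70 was -2.39 (standard error 1.33, 95% interval -5.58 to 0.80), with an unadjusted p of 0.119 and an adjusted p of 0.955 in edgeR's quasi-likelihood test. Limma-voom gave it an unadjusted p of 0.0443 and an adjusted p of 0.81. PS-MP replicate 1, with 0 counts of Zap70, held every other T lineage gene at 12 counts or more.

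Of the genes of regulatory and exhausted T cells, 3 of 4 were tested and did not pass. Foxp3, the defining transcription factor of regulatory T cells, had 0.316, 0.226 and 0.152 CPM in PS-MP libraries and 0.358, 0.279 and 0.113 CPM in control libraries, with overlapping diets and a log2 fold change of -0.10 (standard error 0.55, 95% interval -1.41 to 1.22). It shares exon sequence with Flicr, Ccdc22, Ppp1r3f and Gm36995 in the GENCODE M21 annotation of GRCm38, and since the strand setting of the counting is not given in the sources used here, their reads cannot be told apart. Tox, a transcription factor of exhausted T cells that other cells also express, had 2.92, 1.36 and 1.10 CPM in PS-MP libraries and 3.61, 2.46 and 2.72 CPM in control libraries, with PS-MP replicate 1 above 2 of the control libraries. Its log2 fold change was -0.71 (standard error 0.41, 95% interval -1.69 to 0.27), with an adjusted p of 0.957 in edgeR's quasi-likelihood test. Pdcd1, which encodes the checkpoint receptor PD-1, had 0, 31 and 0 counts in PS-MP libraries and 20, 32 and 3 counts in control libraries, with a log2 fold change of -1.18 (standard error 1.61, 95% interval -5.03 to 2.67). Ctla4, a checkpoint receptor of regulatory and activated T cells, had 0, 27 and 3 counts in PS-MP libraries and 0, 8 and 0 counts in control libraries, and was not tested. Both checkpoint receptors thus had their highest count of the PS-MP libraries in replicate 2.

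Among the cytotoxic granule genes, PS-MP replicate 2 was highest of its diet except for Gzmb. Prf1, perforin, had 0.109, 0.543 and 0.280 CPM in PS-MP libraries and 0.289, 0.328 and 0.387 CPM in control libraries, with overlapping diets and a log2 fold change of -0.11 (standard error 0.58, 95% interval -1.49 to 1.27). Gzma, granzyme A, had 0.133, 0.566 and 0.140 CPM in PS-MP libraries and 0.234, 0.246 and 0.151 CPM in control libraries, with PS-MP replicate 2 highest. Gzmb, granzyme B, had 0.279, 0.543 and 0.841 CPM in PS-MP libraries and 0.344, 0.493 and 0.425 CPM in control libraries. Here PS-MP replicate 3 was the highest library, and the diets overlapped for both granzymes. Gzmk, a granzyme of memory-type cytotoxic T cells, had 0.0728, 1.08 and 0 CPM in PS-MP libraries and 0.124, 0.312 and 0.161 CPM in control libraries, which correspond to 6, 95 and 0 counts in PS-MP libraries and 9, 19 and 17 counts in control libraries. Nkg7, a granule membrane protein needed for degranulation, had 0.473, 1.74 and 0.922 CPM in PS-MP libraries and 1.06, 1.07 and 0.605 CPM in control libraries. For both genes PS-MP replicate 2 lay above every control library and the diets overlapped. Log2 fold changes were 0.42 (standard error 0.67, 95% interval -1.17 to 2.02) for Gzma, 0.40 (standard error 0.45, 95% interval -0.67 to 1.47) for Gzmb, 0.96 (standard error 1.41, 95% interval -2.42 to 4.34) for Gzmk and 0.21 (standard error 0.51, 95% interval -1.01 to 1.42) for Nkg7.

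The NK receptors and the transcription factors of cytotoxic cells lay between 0 and 1.06 CPM in every library. Klrb1c, the NK1.1 antigen of this strain, had 0.316, 0.430 and 0.210 CPM in PS-MP libraries and 0.206, 0.263 and 0.236 CPM in control libraries. Klrk1, the activating receptor NKG2D, had 0.376, 1.06 and 0.572 CPM in PS-MP libraries and 0.647, 0.525 and 0.775 CPM in control libraries. Klrb1c shares 413 exon bases with Gm44511 on the same strand in the GENCODE M21 annotation, so its reads may be split between them. Both receptors overlapped between diets, with log2 fold changes of 0.44 (standard error 0.40, 95% interval -0.51 to 1.39) for Klrb1c and 0.04 (standard error 0.43, 95% interval -0.98 to 1.07) for Klrk1. Klrd1, CD94, which pairs with NKG2 receptors, had 17, 24 and 21 counts in PS-MP libraries and 0, 10 and 13 counts in control libraries. All PS-MP libraries lay above all control libraries, and the log2 fold change of Klrd1 was 1.32 (standard error 0.91, 95% interval -0.86 to 3.51), with an adjusted p of 0.984 in edgeR's quasi-likelihood test. Ncr1, the NK receptor NKp46, had 0, 0 and 0 counts in PS-MP libraries and 4, 6 and 3 counts in control libraries, too few for the filter. Set against a floor of 3 counts over the PS-MP libraries, the scaled control level of Ncr1 was 4.64 times the floor, on 13 counts in all. This ratio leaves out the error of the 13 counts and the spread between libraries, so it does not bound the difference. The diets did not overlap for these 2 NK receptors, in opposite directions and on few counts. Eomes, a transcription factor of NK and memory CD8 T cells, had 0.0607, 0.566 and 0.0584 CPM in PS-MP libraries and 0.110, 0.312 and 0.142 CPM in control libraries. Tbx21, T-bet, had 0.279, 0.272 and 0.409 CPM in PS-MP libraries and 0.289, 0.525 and 0.161 CPM in control libraries. The diets overlapped for both factors, with log2 fold changes of 0.31 (standard error 0.98, 95% interval -2.04 to 2.65) for Eomes and -0.00 (standard error 0.52, 95% interval -1.24 to 1.23) for Tbx21.

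**Figure D2:**
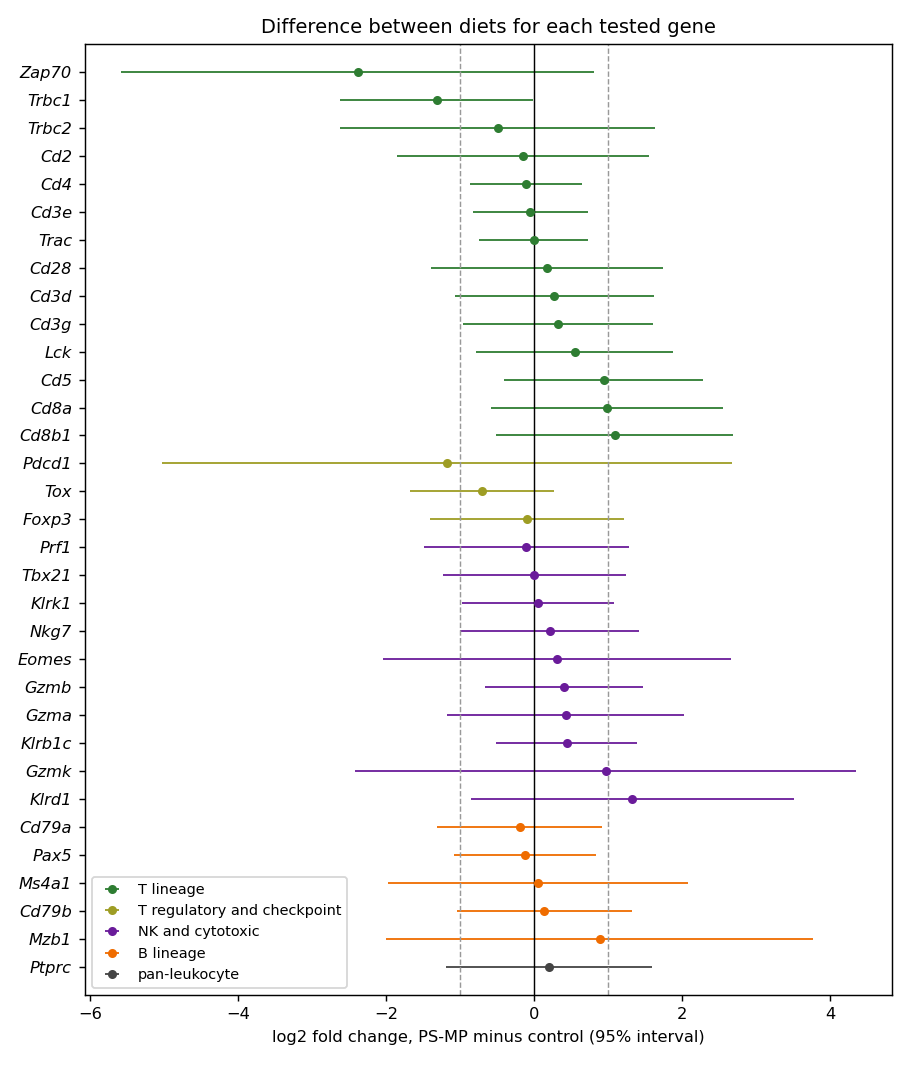
Log2 fold change, PS-MP minus control, with its 95% confidence interval for the 33 tested genes, grouped by class; dashed lines mark 2-fold in either direction. The interval of Trbc1 runs from -2.62 to -0.02 and the other 32 span zero.

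All 5 B lineage genes had their highest level within each diet in replicate 2. Cd79a, a signalling chain of the B cell receptor, had 1.43, 4.80 and 3.32 CPM in PS-MP libraries and 4.14, 4.42 and 2.40 CPM in control libraries. Its partner Cd79b had 1.91, 5.38 and 2.64 CPM in PS-MP libraries and 3.40, 4.04 and 1.61 CPM in control libraries. Diets overlapped for both, with log2 fold changes of -0.20 (standard error 0.47, 95% interval -1.31 to 0.92) for Cd79a and 0.14 (standard error 0.49, 95% interval -1.04 to 1.31) for Cd79b. Ms4a1, the surface protein CD20, had 0.570, 3.70 and 1.52 CPM in PS-MP libraries and 1.05, 3.87 and 0.699 CPM in control libraries, so replicates 2 of both diets stood well above the other libraries. Pax5, the transcription factor that maintains B cell identity, had 0.934, 2.04 and 1.16 CPM in PS-MP libraries and 1.36, 2.10 and 1.05 CPM in control libraries. The log2 fold changes were 0.05 (standard error 0.85, 95% interval -1.98 to 2.08) for Ms4a1 and -0.12 (standard error 0.40, 95% interval -1.09 to 0.84) for Pax5. Mzb1, a chaperone of antibody assembly that is high in plasma cells and marginal zone B cells, had 0.461, 10.6 and 0.922 CPM in PS-MP libraries and 2.42, 3.53 and 0.586 CPM in control libraries, and PS-MP replicate 2 was 23.1 times PS-MP replicate 1. Its log2 fold change was 0.89 (standard error 1.21, 95% interval -2.00 to 3.77). Mzb1 overlaps Spata24 on the same strand in the GENCODE M21 annotation, and Pax5, Cd3e, Tox and Eomes share exon bases with a gene on the opposite strand. Spata24 itself had 2.48, 2.09 and 1.81 CPM in PS-MP libraries and 3.24, 2.54 and 2.58 CPM in control libraries, without the high value in PS-MP replicate 2.

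Ptprc, the pan-leukocyte gene, had 4.98, 12.6 and 5.53 CPM in PS-MP libraries and 3.44, 12.3 and 4.43 CPM in control libraries. Replicates 2 of both diets stood above the rest, at closely similar levels, and the log2 fold change was 0.20 (standard error 0.58, 95% interval -1.19 to 1.59).

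By class, the median log2 fold change was 0.08 for the T lineage (7 genes above and 7 below zero), -0.71 for the 3 tested T regulatory and checkpoint genes (0 above, 3 below), 0.35 for NK and cytotoxic genes (8 above, 2 below) and 0.05 for the B lineage (3 above, 2 below), beside 0.02 over all genes tested. Over the 9051 tested genes of like level the median was 0.10. The class medians are descriptions without a test. Without PS-MP replicate 2 they were -0.18 for the T lineage, -0.41 for NK and cytotoxic genes and -0.61 for the B lineage, and without control replicate 2 they were 0.50 for the T lineage, 0.52 for NK and cytotoxic genes and 0.40 for the B lineage. That of the T regulatory and checkpoint genes ranged from -0.76 to -0.32 with 1 library left out. With all libraries it is the value of Tox. Without the filter on low counts, which adds Ctla4, it was -0.40. The summed level of the T lineage was 6.16, 17.4 and 13.9 CPM in PS-MP libraries and 18.1, 16.2 and 11.9 CPM in control libraries. That of NK and cytotoxic genes was 2.31, 7.08 and 3.68 CPM in PS-MP libraries and 3.36, 4.33 and 3.19 CPM in control libraries. That of the B lineage was 5.30, 26.6 and 9.55 CPM in PS-MP libraries and 12.4, 18.0 and 6.34 CPM in control libraries. In each of these 3 sums the diets overlapped and PS-MP replicate 1 was the lowest of all 6 libraries, while the T lineage sum was highest in control replicate 1. Zap70 alone held 9.28 of the 18.1 CPM of that highest sum, so this rank rests largely on 1 gene. The sum of T regulatory and checkpoint genes was 3.24, 2.24 and 1.28 CPM in PS-MP libraries and 4.24, 3.40 and 2.86 CPM in control libraries. There the diets overlapped too, but PS-MP replicate 1 was the highest PS-MP library and PS-MP replicate 3 the lowest of all. Most of this sum was Tox, with 2.92, 1.36 and 1.10 CPM in PS-MP libraries and 3.61, 2.46 and 2.72 CPM in control libraries. Over all 35 genes the sum averaged 40.6 ± 22.7 CPM in PS-MP libraries and 41.5 ± 12.7 CPM in control libraries (SD, n = 3 each).

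Replicate 2 was the highest library of its diet for most T lineage, NK and cytotoxic, and B lineage genes. Of the 3 tested T regulatory and checkpoint genes, it was so for Pdcd1 but not for Tox or Foxp3. The untested Ctla4 was also highest in replicate 2 of each diet, with 27 counts in PS-MP replicate 2 and 8 in control replicate 2. PS-MP replicate 2 exceeded both other PS-MP libraries for 12 of 14 T lineage genes, 8 of 10 NK and cytotoxic genes, 5 of 5 B lineage genes and 1 of 3 T regulatory and checkpoint genes, 27 of the 33 in all with Ptprc, against 37% of all genes tested. Control replicate 2 exceeded both other control libraries for 10 of 14 T lineage genes, 8 of 10 NK and cytotoxic genes, 5 of 5 B lineage genes and 1 of 3 T regulatory and checkpoint genes, 25 of 33 in all with Ptprc, against 39.7% of all genes tested. Both held at once for 22 of the 33, against 20.7% of all genes tested. Among the 9051 tested genes of like level, the share was 38.3% for PS-MP replicate 2 and 46.3% for control replicate 2. Of the 6 libraries, PS-MP replicate 1 was the lowest for 17 genes and control replicate 3 for 7. The tested genes for which PS-MP replicate 2 did not exceed both other PS-MP libraries were Zap70, Trbc2, Tox, Foxp3, Gzmb and Tbx21. This pattern was seen in the values and is given as a description, without a test.

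**Figure D3:**
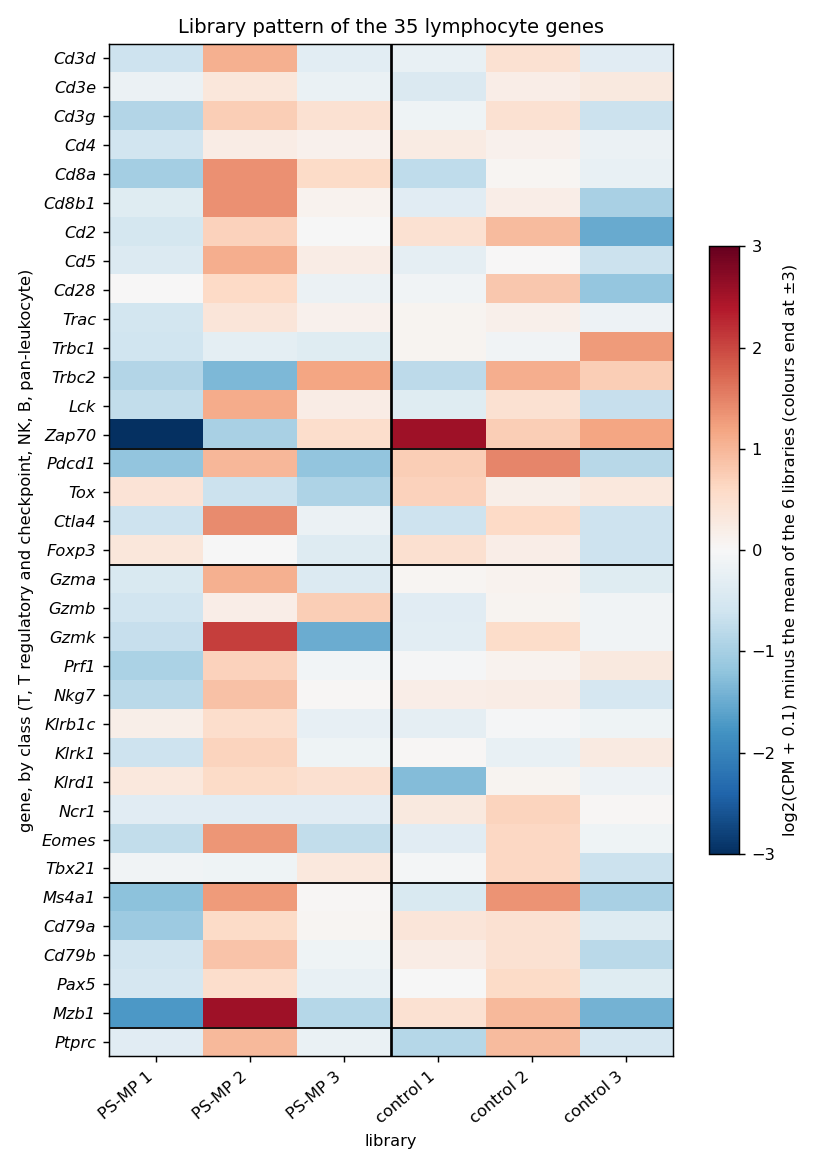
Deviation of each gene in each library from its mean over the 6 libraries, on a log2 scale of CPM with a small constant added, for the 35 genes, PS-MP libraries left of control libraries. The columns of PS-MP replicate 2 and control replicate 2 are mostly above the mean for the T lineage, NK and B genes, and the column of PS-MP replicate 1 is mostly below it, while Tox, Foxp3 and Zap70 depart from this.

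Beyond the 35 genes, 10 further lists of lymphocyte genes were read from the same fit. Of their 133 genes, 109 were tested, 0 were called, and 4 had an unadjusted p under 0.05 in edgeR, 2 higher and 2 lower, against 2.8% higher and 2.58% lower over all genes tested. The median log2 fold change of these 109 was 0.14, beside 0.02 over all genes tested. Zbtb16, a transcription factor of NKT and other innate-like T cells that liver cells of other kinds also express, had 1.89, 2.15 and 2.98 CPM in PS-MP libraries and 8.30, 8.19 and 3.60 CPM in control libraries. All PS-MP libraries lay below all control libraries, with a log2 fold change of -1.52 (SE 0.38), an unadjusted p of 0.00563 and an adjusted p of 0.767 in edgeR. DESeq2 called it, with an adjusted p of 0.0226. It was the 1 gene called by DESeq2 among the 109, against 1.06% of all genes tested there, a like share. Cxcl9, a chemokine that attracts activated T cells, had 5.46, 7.73 and 5.05 CPM in PS-MP libraries and 8.08, 11.7 and 10.5 CPM in control libraries, a log2 fold change of -0.73 (SE 0.24) and an adjusted p of 0.837 in edgeR. Its diets did not overlap. Prdm1, a transcription factor of plasma cells and effector T cells, had 0.498, 0.781 and 0.374 CPM in PS-MP libraries and 0.275, 0.213 and 0.208 CPM in control libraries, a log2 fold change of 1.24 (SE 0.39) and an adjusted p of 0.815 in edgeR. Tcf7, a transcription factor of naive and memory T cells, had 0.728, 1.17 and 0.117 CPM in PS-MP libraries and 0.0688, 0.197 and 0.180 CPM in control libraries, a log2 fold change of 2.16 (SE 0.84) and an adjusted p of 0.918 in edgeR. PS-MP replicate 3 lay inside the control range of Tcf7, while Prdm1 did not overlap between diets.

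Over the 109 tested genes of these lists, replicate 2 was the highest PS-MP library for 80 and the highest control library for 83, and both at once for 65, against 37%, 39.7% and 20.7% of all genes tested. Of 17 B cell receptor and surface genes, 17 were highest of the PS-MP libraries in replicate 2 and 16 were highest of the control libraries in replicate 2, with a median log2 fold change of -0.04. The same counts were 12 and 13 of 17 for T cell receptor signalling genes, whose median log2 fold change was 0.19, and 12 and 15 of 17 for costimulation, homing and cytokine receptor genes, whose median was 0.31. They were 10 and 10 of 12 for T cell transcription factors, 5 and 7 of 8 for checkpoint genes, 6 and 5 of 8 for B cell transcription factors and 6 and 9 of 9 for lymphoid chemokines and lymphotoxins. Control replicate 2 came closer to its share over all genes for NK receptors and adaptors, with 5 of 11 (3 for both replicates at once). The same held for gamma-delta T cell and innate lymphoid genes with 2 of 4, and plasma cell genes with 2 of 7. PS-MP replicate 2 was the highest of its diet for 7 of 11, 2 of 4 and 4 of 7 genes of these lists. Jchain, which joins antibody units and is named because its values stood out, had 7.39, 67.4 and 8.70 CPM in PS-MP libraries and 28.1, 39.9 and 12.5 CPM in control libraries. Like Mzb1, it was highest in PS-MP replicate 2.

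Markers of the other cells of the liver were read from the same libraries. Of 11 Kupffer cell and macrophage genes, 0 were highest within both diets in replicate 2. Their summed level was 219 to 246 CPM in PS-MP libraries and 143 to 190 CPM in control libraries, with 11 of 11 above zero in log2 fold change, and a median of 0.41. Of these 11, edgeR called 0 and gave 3 an unadjusted p under 0.05, against 5.38% of all genes tested, and DESeq2 called 1, against 1.06%. Of the 6 tested neutrophil genes, 5 lay above zero with a median of 1.32, 3 had an unadjusted p under 0.05 in edgeR, 0 were called there and DESeq2 called 1. The list's summed level was 3.24 to 6.67 CPM in PS-MP libraries and 1.90 to 2.67 CPM in control libraries, with Ly6g at 0 throughout. Of 5 tested dendritic cell genes, 4 were highest within both diets in replicate 2, with a summed level of 5.59 to 6.50 CPM in PS-MP libraries and 3.99 to 7.62 CPM in control libraries. The summed level of 7 hepatocyte genes, whose Alb defines the tissue, was 86807, 68895 and 84015 CPM in PS-MP libraries and 80086, 62311 and 73426 CPM in control libraries, so replicate 2 was the lowest of each diet. Red cell genes summed to 571 to 848 CPM in PS-MP libraries and 263 to 504 CPM in control libraries, without overlap, with 2 of 5 at an unadjusted p under 0.05 in edgeR, 0 called by edgeR or DESeq2, and 0 highest within both diets in replicate 2. The last count was 3 of 6 for stellate cell genes, which summed to 274 to 393 CPM in PS-MP libraries and 331 to 361 CPM in control libraries. It was 0 of 7 for sinusoidal endothelial genes, with 104 to 144 CPM in PS-MP libraries and 90.4 to 116 CPM in control libraries, and 0 of 5 for cholangiocyte genes, with 11.2 to 21.3 CPM in PS-MP libraries and 12.0 to 26.5 CPM in control libraries. Control replicate 2 also had the highest share of Rn18s-rs5, and PS-MP replicate 2 did not. The part of the other cells and of Rn18s-rs5 in the lymphocyte pattern was not tested.

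**Figure D4:**
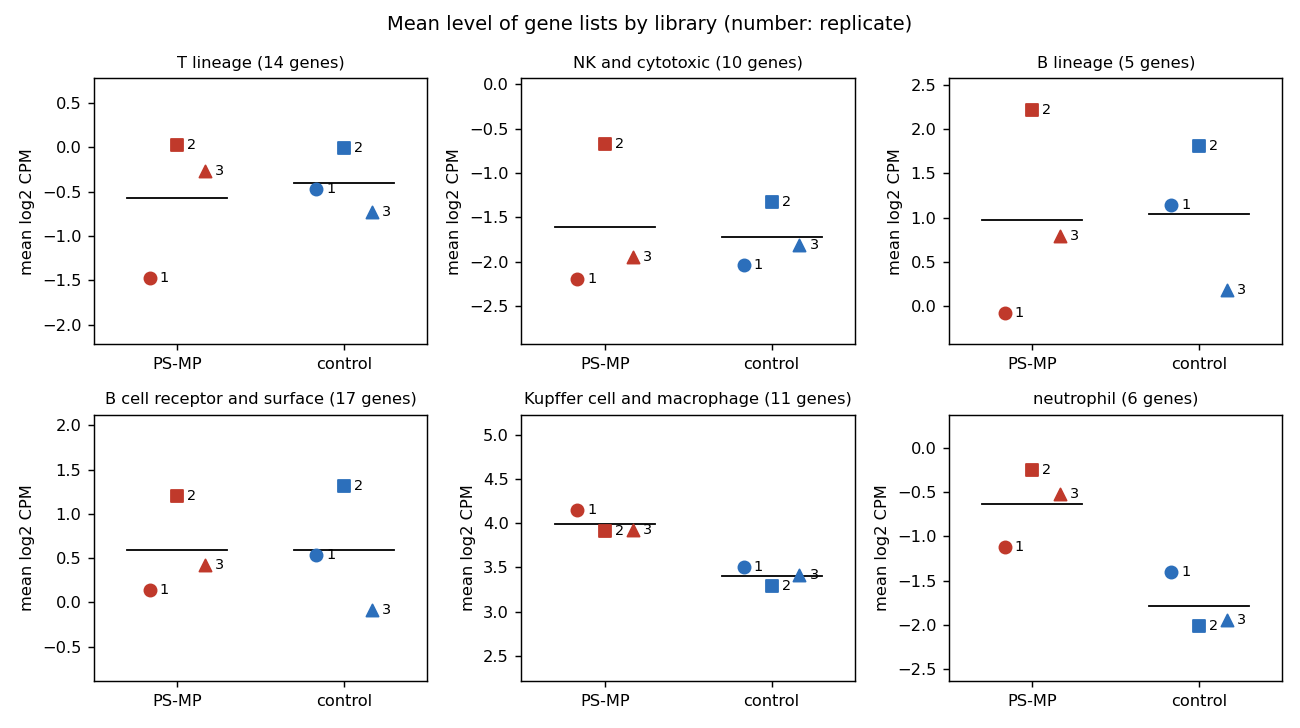
Mean log2 CPM of the tested genes of 6 cell type lists in each library, PS-MP libraries left of control libraries, a symbol for each replicate and lines at the diet means. In the T, NK and B lists replicate 2 is the highest of each diet, in the Kupffer cell list all PS-MP libraries (3.91 to 4.15) lie above all control libraries (3.29 to 3.50), and the neutrophil list does the same.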

How the data were processed

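Liver RNA of 6 libraries was sequenced, 3 from mice on PS-MP chow and 3 from mice on normal chow. Per the labels' protocols, libraries were directional and built from polyadenylated RNA. The build GRCm39 and the tool bcl2fastq are named in the submitters' processing notes. The sources used here name no aligner, counter, annotation release or strand setting. Deposited values are whole-number read counts per gene, not normalised, in files of 56674 rows; counts of the 67 repeated symbols were added up. The series table holds the same counts.

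Counts were analysed in R 4.3.3 with edgeR 4.0.16: filterByExpr by diet (17662 genes left), TMM scaling, and the quasi-likelihood F test with diet as the one term. Benjamini-Hochberg adjustment covered every gene tested. A log2 fold change is PS-MP minus control, and its 95% interval uses 6.63 moderated degrees of freedom. Class means use log2 CPM with a prior count of 2. Alternatives were other scalings and filters, DESeq2 1.42.0, limma-voom (limma 3.58.1), robust dispersion, removal of ribosomal RNA genes, a replicate block, and omission of each library in turn. Class means without Zap70, Trbc1 and Trbc2, and without Mzb1, were chosen after seeing the data. The edgeR fit was tested on simulated counts.

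The 35 genes and all lists were chosen with earlier results of these data known. All 35 are named; of each further lymphocyte list, the rule names the 2 tested genes with the smallest unadjusted p in each direction, of which only those with p under 0.05 are printed. A floor covers only the counting error of counts of 0.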

Additional observations from a re-analysis of the deposited data

How the results depend on the processing

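Of the 35 lymphocyte genes, 0 were called under each of the 16 alternatives run. Of their 509 alternative log2 fold changes, 66 changed sign and 0 passed. The number of all genes called was 187 in DESeq2, 1 in limma-voom and 0 with the replicate number as a block, against 2; it was 0 to 4 with 1 library left out, 0 without control replicate 3 and 4 without control replicate 2. Among the 35, the number at an unadjusted p under 0.05 in edgeR was 0 under upper quartile scaling and library size alone. It was also 0 under a filter of 1 CPM in 3 libraries (14 genes tested), and 2 without a filter (Ncr1 and Trbc1). With 1 library left out it was 0 to 3. It was 3 without PS-MP replicate 1 (Cd5, Cd8a and Tox) and 0 without control replicate 3.

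Same-numbered libraries deviated together with r of 0.11, 0.14 and -0.13, so the numbers were not taken as pairs. With the replicate block, 1 of the 35 lymphocyte genes, Tox, had an unadjusted p under 0.05 in edgeR, against 5.35% of all genes tested. Log2 fold changes turned to 0.10 for Cd2, -0.51 for Gzmk, -0.07 for Klrk1, -0.31 for Eomes and 0.10 for Tbx21. In limma-voom they turned to 0.32 for Cd2, 0.09 for Foxp3, -1.19 for Gzmk, -0.09 for Klrk1, -0.30 for Eomes and 0.24 for Tbx21.

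Scaling by library size alone moved the median of all genes to 0.23, and turned Cd3e to 0.17, Cd4 to 0.10, Cd2 to 0.09, Trac to 0.22, Foxp3 to 0.11, Prf1 to 0.12, Tbx21 to 0.22, Cd79a to 0.04 and Pax5 to 0.11. Upper quartile scaling gave 0.01 for Trac and 0.02 for Tbx21, the filter of 1 CPM gave 0.01 for Trac, and no filter gave 0.01 for Tbx21.

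With 1 library left out, log2 fold changes that changed sign ranged from -0.64 to 0.41 for Cd2, -0.28 to 0.96 for Cd28, -0.54 to 0.59 for Cd3d, -0.28 to 0.11 for Cd3e, -0.02 to 0.70 for Cd3g, -0.27 to 0.11 for Cd4, -0.61 to 0.15 for Cd79a, -0.40 to 0.41 for Cd79b, -1.62 to 0.85 for Eomes, -0.46 to 0.27 for Foxp3, -0.60 to 0.75 for Gzma, -0.04 to 0.72 for Gzmb, -2.41 to 1.53 for Gzmk, -0.45 to 0.33 for Klrk1, -0.05 to 0.98 for Lck, -0.83 to 1.15 for Ms4a1, -1.64 to 1.42 for Mzb1, -0.37 to 0.55 for Nkg7, -0.52 to 0.19 for Pax5, -0.77 to 0.29 for Prf1, -0.35 to 0.97 for Ptprc, -0.34 to 0.52 for Tbx21 and -0.22 to 0.23 for Trac. Those that kept their sign ranged from 0.32 to 1.27 for Cd5, 0.30 to 1.43 for Cd8a, 0.26 to 1.53 for Cd8b1, 0.16 to 0.65 for Klrb1c, 0.76 to 1.85 for Klrd1, -7.47 to -0.32 for Pdcd1, -1.25 to -0.46 for Tox, -1.60 to -0.58 for Trbc1, -1.99 to -0.05 for Trbc2 and -3.84 to -1.64 for Zap70. Class medians ranged from -0.18 to 0.50 for the T lineage, -0.76 to -0.32 for T regulatory and checkpoint genes, -0.41 to 0.64 for NK and cytotoxic genes (lowest without PS-MP replicate 2) and -0.61 to 0.41 for the B lineage. Mean log2 CPM differences ranged from -0.46 to 0.29 for the T lineage (-0.16 with all libraries), -1.36 to -0.47 for T regulatory and checkpoint genes (-0.87), -0.35 to 0.41 for NK and cytotoxic genes (0.12) and -0.69 to 0.46 for the B lineage (-0.07). That of the T lineage was 0.29 without Zap70, Trbc1 and Trbc2, and that of the B lineage was -0.08 without Mzb1. The cause of these changes was not tested. Some counts were low: 8 of the 35 had fewer than 10 counts in at least 1 library, and 6 had 0. Zap70 was among these, with 0 counts in PS-MP replicate 1 and 674 in control replicate 1. The part of sequencing depth in the counts of 0 was not tested.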

Other observations

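Within a library, the ratio of counts of 2 genes does not depend on scaling. Cd8a to Cd4 counts stood at 0.463, 1.66 and 0.990 in PS-MP libraries and 0.311, 0.667 and 0.681 in control libraries. Mzb1 to Cd79a stood at 0.322, 2.22 and 0.278 in PS-MP libraries and 0.585, 0.799 and 0.244 in control libraries, so the plasma cell gene exceeded its usual proportion to the B cell gene in PS-MP replicate 2. Zap70 to Lck stood at 0, 0.233 and 1.37 in PS-MP libraries and 8.99, 1.35 and 4.35 in control libraries, so the 2 kinases kept no fixed proportion even among libraries of the same diet. These ratios were chosen after the values were seen and were not tested, and a ratio compares the same pair of genes between libraries, not the level of 1 gene with that of the other.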
